A study of Mus musculus with 144 samples.

Results

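Blood leukocytes of mice were profiled 3 days after trauma-hemorrhage, an injury model that joins tissue trauma to blood loss, and set against leukocytes of sham animals of the same model and day. The injured group is the 4 arrays titled trauma hemorrhage at 3 days and the sham group the 4 arrays titled as its sham at 3 days, which makes 8 of the 144 arrays of the series. These titles also contain the word burn, but the descriptions of all 8 samples name trauma-hemorrhage, and that model was followed. The series as a whole holds 36 groups of 4 arrays, covering burn and trauma-hemorrhage in blood and spleen from 2 hr to 7 days and lipopolysaccharide in blood. Per the series' design text each sample came from an individual mouse, so a p-value here compares mice. Strain, age, sex and the volume of blood lost are not given in the labels of these 8 samples, and no genotype or drug is named for either group.

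After blood loss, the kidney hormone erythropoietin drives the marrow, and in mice also the spleen, to make red cells, and young red cells that still hold RNA (reticulocytes) enter the circulation. Injury also brings neutrophils out of the marrow, among them young cells that still carry mRNA of granule proteins, and it commonly lowers circulating lymphocytes. Per the labels' protocols, blood was taken by cardiac puncture and red cells were lysed before RNA extraction. A preparation of this kind can still hold RNA of reticulocytes and platelets. Markers of leukocytes were present on all 8 arrays: Ptprc, which encodes the pan-leukocyte protein CD45, had signals of 17916, 21935, 14199.9 and 12762 on injured replicates 1 to 4 and 14776, 17606, 17492 and 15270.5 on sham replicates 1 to 4. Its log2 change was 0.01 (SE 0.16, limma adjusted p = 0.983), and it turned to -0.41 (limma adjusted p = 0.0209) with quantile normalization. The 1 other probe set of Ptprc changed in the opposite direction to the one used. In bulk RNA, fewer cells of a type and less RNA per cell cannot be told apart, and this applies to every cell marker below.

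Array brightness differed between the groups and is given first because many results moved with it. BioB and BioC are bacterial transcripts added in equal amount to each hybridization. Every array was scaled to the same mean, so a high control level marks an array on which the mouse RNA gave little signal. The BioB and BioC level was 13492, 15456, 5555 and 16792 on injured replicates 1 to 4 and 4947, 7518, 9529 and 6929 on sham replicates 1 to 4. Relative to the median of the 64 blood arrays of the burn and trauma-hemorrhage models this was 2.11, 2.42, 0.87 and 2.63 times in the injured and 0.775, 1.18, 1.49 and 1.09 times in the sham arrays. Injured replicates 1, 2 and 4 thus lay over 2 times the median and are called dim, while injured replicate 3 was brighter than 3 of the 4 shams. The group difference was 0.75 on the log2 scale (exact two-sided permutation test, p = 0.114, where the smallest p that 4 against 4 arrays allow is 0.0286).

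The ratio of the 3′ to the 5′ probe set of Gapdh, which rises as RNA is degraded, was 2.34, 2.02, 1.75 and 2.25 in the injured and 2.35, 2.83, 2.86 and 3.72 in the sham arrays. All 4 injured arrays lay below all 4 shams, by 0.48 on the log2 scale (exact two-sided permutation test, p = 0.0286), although the nearest arrays, injured replicate 1 and sham replicate 1, differed by very little. No dim array thus had a higher Gapdh ratio than the shams. The same ratio of beta-actin overlapped between the groups, at 3.72, 3.23, 2.24 and 4.17 in the injured and 3.38, 3.50, 3.84 and 4.48 in the sham arrays. Its difference was -0.21 on the log2 scale (exact two-sided permutation test, p = 0.429). Replicates 1 and 2 of both groups were hybridized on one day and replicates 3 and 4 on another. Injured replicate 4 stood apart from the rest: it correlated with the other 7 arrays at r from 0.798 to 0.900 across genes, against 0.888 to 0.957 for all other pairs. Of heart muscle markers and of stroma and vessel markers, which the puncture could carry over, 0 of 8 and 0 of 16 passed the test. Beside 12.3% of all genes, zeros in lists this small do not show that the groups were level. Their median log2 changes were 0.27 and 0.18, beside -0.21 for all genes. The summed signal of the heart list was 309.9 to 943 in the injured and 275 to 730.1 in the sham arrays. That of the stroma and vessel list was 1471 to 3211 in the injured and 1258 to 2323 in the sham arrays.

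**Figure D1:**
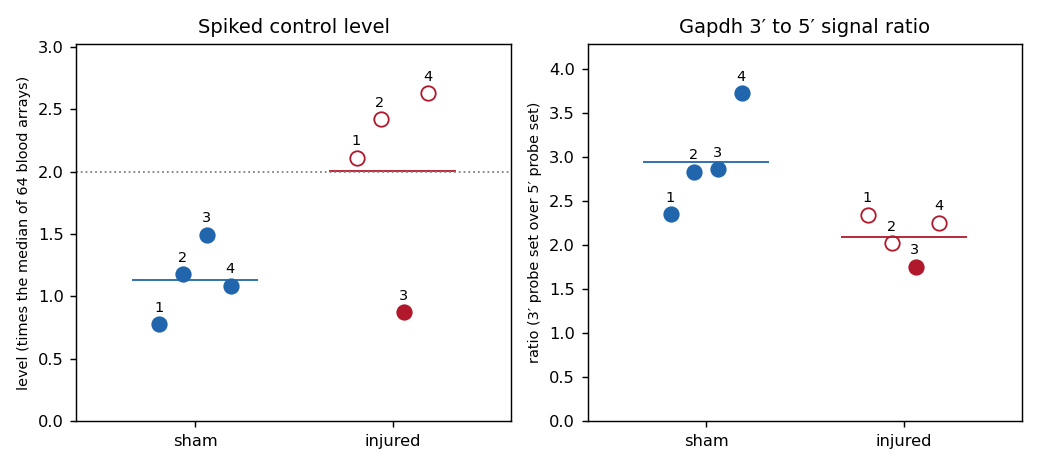
Level of the BioB and BioC controls as a multiple of the median of 64 blood arrays (left, dotted line at 2) and the Gapdh 3′ to 5′ ratio (right) on each of the 8 arrays, with the replicate number beside each point, group means as lines and dim arrays as open circles. Injured replicates 1, 2 and 4 lie above the dotted line and injured replicate 3 does not, while the Gapdh ratio of all 4 injured arrays lies below that of all 4 shams.

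Signals are given array by array in the order of replicates 1 to 4. A log2 change is the injured minus the sham mean of log2(signal + 32), and a gene rose or fell only where its limma adjusted p was under 0.05. Of 14709 genes tested, 1815 (12.3%) passed, 672 (4.57%) higher and 1143 (7.77%) lower. The median log2 change of all genes was -0.21, so a typical gene lay slightly lower in the injured arrays. It was -0.10 after quantile normalization and -0.14 after scaling to a common median. The split between rises and falls depended on the scale: 37.0% of calls were higher here, 44.8% with quantile normalization (548 of 1223), 50% with the control level as a covariate (304 of 608, 4.13% of all genes) and 87.5% after scaling to a common median (442 of 505, 3.43%). Injured and sham arrays did not overlap for 526 genes that lay higher (3.58% of all tested) and 1000 that lay lower (6.8%). Among the called genes, 322 of the 672 rises and 547 of the 1143 falls had arrays that did not overlap.

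Injured replicate 4 was the lowest of the 8 arrays for 849 of the 1143 genes that fell and the highest for 482 of the 672 that rose, against 3997 and 3253 of all 14709 genes. Without it 311 genes passed (2.11%), 198 higher and 113 lower. Sham replicate 1 was the array whose loss removed the most calls among the shams (748 left, against 997 without sham replicate 4 and 1174 without sham replicate 2), and without injured replicate 3 the count was 2741. With the control level as a covariate, 263 of the 672 rises and 258 of the 1143 falls passed in the same direction. Without the dim arrays, which leaves injured replicate 3 alone against the 4 shams and rests on the spread of the other groups, 35 genes passed (0.238%), and 32 of them were called in the same direction with all 8 arrays. Within the first hybridization day 463 genes passed (3.15%) and within the second 233 (1.58%). The 48 genes called within both days all had the same direction, 40 higher and 8 lower.

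The largest rises among all genes that passed were of Gstt1 and Hjv, which were low in the shams and high on every injured array, bright or dim. Gstt1 encodes glutathione S-transferase theta, a detoxifying enzyme that red cells also hold. Its signal was 15199, 16067, 18731 and 23424 in the injured and 941, 133, 281 and 250.1 in the sham arrays. The lowest injured array thus lay far above the highest sham, and the log2 change was 5.72 (SE 0.72, limma adjusted p = 3.75e-07). With the control level as a covariate it was 5.77 (limma adjusted p = 4.15e-06), and with bright replicate 3 as the only injured array 5.77 (limma adjusted p = 0.0133). Hjv encodes hemojuvelin, a co-receptor for bone morphogenetic proteins that raises hepcidin, the hormone that limits iron export. It measured 787, 1023, 1731 and 1873 against 36.5, 2.65, 35.4 and 41.8, a log2 change of 4.48 (SE 0.54, limma adjusted p = 2.18e-07). Sham signals of this size are near the pseudocount of 32, so the size of the Hjv change rests on that pseudocount. The 1 other probe set of Hjv moved the same way, and the change with replicate 3 alone was 4.91 (limma adjusted p = 0.00182).

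Further genes were high on all 4 injured arrays. Dst, which encodes the cytoskeletal linker dystonin, had signals of 349, 768, 1879 and 2762 against 91, 170.4, 42 and 6.98, and 2 of its 3 other probe sets moved the same way. Stfa3, a stefin that inhibits cysteine proteases and is made by mouse neutrophils, measured 148, 839, 3331 and 2211 against 86, 46, 10.4 and 41.7 and was highest on the bright replicate. The unnamed transcript A930009A15Rik stood at 510.0, 492, 1157 and 682 against 28.2, 10.9, 84.4 and 32.2. Log2 changes of these were 3.62, 3.83 and 3.40, and all passed with the control level as a covariate and with replicate 3 alone. Ankrd36, an ankyrin repeat gene, measured 262, 381, 132 and 2464 against 4.4, 48.4, 10.1 and 3.51 and was lowest among the injured arrays on the bright one.

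Dstn, Rsu1 and Tuba4a, 3 genes of the cytoskeleton and cell adhesion, rose with smaller folds. No list of such genes was tested. Dstn encodes destrin, which severs actin filaments. Its signal was 19509, 23504, 15856 and 34026 against 4227, 5668, 5886 and 4626, a log2 change of 2.13 (SE 0.26, limma adjusted p = 2.18e-07) that was 2.12 with the control level as a covariate. Rsu1, a partner of the integrin-linked kinase complex, measured 18162, 16761, 18169 and 30419 against 5318, 6673, 5986 and 3873 (log2 change 1.91), while its 1 other probe set did not move the same way. Tuba4a, an alpha tubulin, stood at 45307, 41648, 22922 and 54289.7 against 11106, 9338, 17737 and 11802 (log2 change 1.69). None of the 3 had overlapping groups, and all passed with the covariate.

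The upstream sequences of 4 genes are shown to set genes high on every injured array (Gstt1 and Stfa3) beside red cell genes described next (Alas2 and Trim10). They are RefSeq windows of build GRCm38.p6, from 250 bases before to 50 after the annotated start, 5′ to 3′ on the gene's strand. Capitals mark 2 motifs searched on both strands: AGATAA, the site of GATA factors such as GATA1, and CCNCNCCC, a site of KLF factors such as KLF1, and neighbouring CCNCNCCC matches overlap. The Gstt1 window lies on chr10:75797682-75797981 on the minus strand, the Stfa3 window on chr16:36455343-36455642 on the minus strand, the Alas2 window on chrX:150547167-150547466 on the plus strand and the Trim10 window on chr17:36869324-36869623 on the plus strand.
Gstt1: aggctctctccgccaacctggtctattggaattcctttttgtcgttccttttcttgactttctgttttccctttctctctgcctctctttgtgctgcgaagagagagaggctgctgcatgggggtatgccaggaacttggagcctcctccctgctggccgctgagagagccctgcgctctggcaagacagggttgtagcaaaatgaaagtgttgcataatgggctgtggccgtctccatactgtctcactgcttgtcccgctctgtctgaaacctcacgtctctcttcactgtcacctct
Stfa3: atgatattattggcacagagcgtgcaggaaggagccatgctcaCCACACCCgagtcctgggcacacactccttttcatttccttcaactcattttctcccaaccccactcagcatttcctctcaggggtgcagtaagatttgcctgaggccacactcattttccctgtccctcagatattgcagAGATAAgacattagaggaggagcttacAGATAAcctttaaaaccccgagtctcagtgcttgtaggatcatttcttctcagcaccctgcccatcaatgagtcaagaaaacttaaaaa
Alas2: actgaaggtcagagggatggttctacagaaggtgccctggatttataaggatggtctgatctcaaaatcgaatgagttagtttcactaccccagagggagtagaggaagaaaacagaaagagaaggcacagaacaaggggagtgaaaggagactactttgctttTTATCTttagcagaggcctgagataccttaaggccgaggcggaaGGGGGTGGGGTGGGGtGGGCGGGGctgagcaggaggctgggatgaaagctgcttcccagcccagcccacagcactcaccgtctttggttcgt
Trim10: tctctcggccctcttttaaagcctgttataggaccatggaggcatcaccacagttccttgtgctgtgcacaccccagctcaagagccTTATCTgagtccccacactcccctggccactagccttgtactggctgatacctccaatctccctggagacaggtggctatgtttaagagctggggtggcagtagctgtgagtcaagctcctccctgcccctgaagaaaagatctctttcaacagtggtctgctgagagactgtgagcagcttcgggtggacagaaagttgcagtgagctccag
AGATAA occurred 1 time in Alas2 (86 bases before the start, opposite strand), 1 time in Trim10 (163 before, opposite strand) and 2 times in Stfa3 (66 and 39 before). CCNCNCCC occurred 4 times in Alas2 and 1 time in Stfa3, and neither motif was found in the Gstt1 window. Among all 32851 windows, 11.2% held AGATAA and 49.5% held CCNCNCCC. Of the 24 windows found for 23 of the 30 red cell list genes that rose, 5 held AGATAA and 16 (66.7%) held CCNCNCCC. CCNCNCCC was in 69.7% of the windows of all genes that rose and in 67.3% for those that fell, and AGATAA was in 8.30% and 6.06%. A match is a description of the letters only.

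Red cell genes rose as a group, and their signals followed the dim arrays. Of 18 red cell membrane genes tested, 13 rose and 0 fell, of 13 heme synthesis genes 6 rose, of 12 erythroid transcription factors and the erythropoietin receptor 5, of 16 late erythroblast and reticulocyte genes 4 and of 5 globin genes 2, beside 4.57% of all genes. None of these lists had a gene that fell. Median log2 changes were 1.68, 0.98, 0.75, 1.05 and 0.81, beside -0.21 for all genes. With the control level as a covariate, 2, 1, 0, 0 and 0 of their genes rose, beside 2.07% of all genes, a share at which these zeros say little. Their median log2 changes were then smaller, at 0.68, 0.58, 0.42, 0.15 and 0.28, beside -0.24 for all genes. The summed signal of the membrane list was 61009.8 to 242797 in the injured and 31219.6 to 113544 in the sham arrays. Within hybridization day 1, when both injured arrays were dim, 9 of the 18 membrane genes passed beside 2.28% of all genes. Within day 2, when 1 of 2 was dim, 0 did beside 0.7%, a share at which 0 of 18 is no sign of a difference. The median log2 change of the list was 2.49 within day 1 and 0.87 within day 2.

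Among the factors that direct red cell formation, Gata1 measured 3679, 2609.7, 2881 and 4394 against 1075, 1105, 2099 and 1781 and Klf1 142, 204, 132 and 282 against 1.41, 103, 55.3 and 39.1. Both groups were apart, and the log2 changes of 1.18 and 1.56 passed (limma adjusted p = 0.0382 and 0.022). Nfe2, a factor of red cells and megakaryocytes that neutrophils also express, was even across the injured arrays at 3049.6, 2852, 3233 and 3722, above 1420.0, 1747, 1897 and 2043 in the shams. Foxo3, a factor of late red cell maturation, stood at 31201, 27498, 15001 and 29372 against 12804, 15564, 23016 and 15516, with bright replicate 3 among the shams. None of the 12 genes of the list passed with the covariate, beside 4.13% of all genes. Nfe2 kept a log2 change of 0.84 (limma adjusted p = 0.0693) while that of Foxo3 was 0.13.

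For heme, Alas2, the erythroid enzyme that opens its synthesis, gave 70902, 77473, 26095 and 83699 in the injured and 17657, 38366, 51431 and 29173 in the sham arrays. The 3 dim injured arrays lay above every sham and the bright one lay below 3 of the 4. Its log2 change of 0.89 passed (limma adjusted p = 0.032), was 0.05 with the covariate and turned to -0.28 (limma adjusted p = 0.857) with replicate 3 alone. Fech, the enzyme that inserts the iron, had the same order at 57807, 58346, 20482 and 71043 against 14394, 26489.5, 37341 and 23018. Urod, a middle enzyme of the pathway, measured 6551, 3873, 2237 and 11147 against 1148, 1381, 2178 and 1504, with groups just apart. It was the heme gene that passed with the covariate (log2 change 1.71 without and 1.27 with it). Cpox, the enzyme that follows Urod, stood at 7842, 3312, 1293 and 8112 against 935, 1519, 2727 and 1064 (log2 change 1.49), and 1 of its 2 other probe sets moved the same way. Of the globins, Hba-a2 rose (18899.7, 9484, 6846 and 22609.6 against 4522, 5039, 10631 and 5902, log2 change 1.07) and Hbb-b2 did not pass (44835, 35997, 14391 and 44469 against 13943, 14644, 24261 and 21755, limma adjusted p = 0.0677).

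Among membrane genes, Rhag, which encodes the Rh-associated ammonium transporter, measured 3824, 1277, 775 and 5647 against 137, 435, 698 and 177, a log2 change of 2.73 (SE 0.59, limma adjusted p = 0.00167). Ermap, an erythroid membrane protein of the butyrophilin kind, stood at 2535, 912, 628 and 2565 against 82.9, 120.4, 547 and 196 (log2 change 2.70). For both genes the groups did not overlap, but the bright injured array lay just above the highest sham. Aqp1, the water channel aquaporin 1, was the steadier case at 2146, 2360.2, 1901 and 2958 against 306, 376, 868 and 427, and passed with the covariate (log2 change 2.26 without and 1.84 with it). Slc4a1, which encodes the anion exchanger band 3, read 59136, 60644, 21894 and 78508 against 8715, 26653, 38917 and 20409.6 and did not pass (log2 change 1.26, limma adjusted p = 0.0729).

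Late erythroblast genes also followed array brightness. Trim10, a ring-finger protein of terminal red cell maturation, measured 22212, 12078, 4134 and 32227 against 636, 3616, 12078 and 2467, and sham replicate 3, the sham with the highest control level, had the same rounded signal as injured replicate 2. Its log2 change went from 2.24 (limma adjusted p = 0.0257) to 0.68 (limma adjusted p = 0.478) with the covariate. Tspan33, a tetraspanin of red cell precursors, went from 1.72 to 0.27. Prdx2, the red cell peroxiredoxin, stood at 61559.7, 46871, 18697 and 67885 against 6404, 17721, 32038 and 15351, and Blvrb, biliverdin reductase B, at 14815, 6806, 3134 and 19325 against 597, 1736, 6538 and 1794. In both, the bright injured array lay within the shams. Of 13 genes of iron handling 3 rose, beside 4.57% of all genes, and none passed with the covariate, beside 4.13%. Among them was Tfrc, the transferrin receptor that takes up iron, at 30063, 21999, 9429 and 43888 against 4251, 5629, 14811 and 5973 (log2 change 1.75), with all 5 other probe sets moving the same way. Fth1, the ferritin heavy chain, measured 61158, 60647, 24923 and 70047 against 21694, 29643, 40229 and 27209 and rose as well, while Ireb2, which represses ferritin translation and steadies Tfrc mRNA when iron is scarce, did not pass (log2 change -0.78, limma adjusted p = 0.0526).

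Of the 32 sham blood arrays 1 was dim, sham replicate 2 of the 2 hr trauma-hemorrhage sham group. Alas2 measured 21784, 72507, 34895 and 25191 on sham replicates 1 to 4 of that group and Trim10 760.4, 11172, 2479.7 and 762, so the dim sham was the highest for both. The median gene of the red cell membrane list lay 2.40 above the mean of the other 3 shams on the log2 scale, that of the reticulocyte list 1.73 and that of the heme list 1.24. Platelet genes lay 0.89 above, while the values were -0.24 and -0.06 for complex IV and V genes and -1.23 for neutrophil secondary granule genes. That array also differed in white cell lists, with medians of -1.90 for monocyte and -2.08 for stefin genes. The part of dimness in the red cell rise of the injured arrays was not tested beyond these values.

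**Figure D2:**
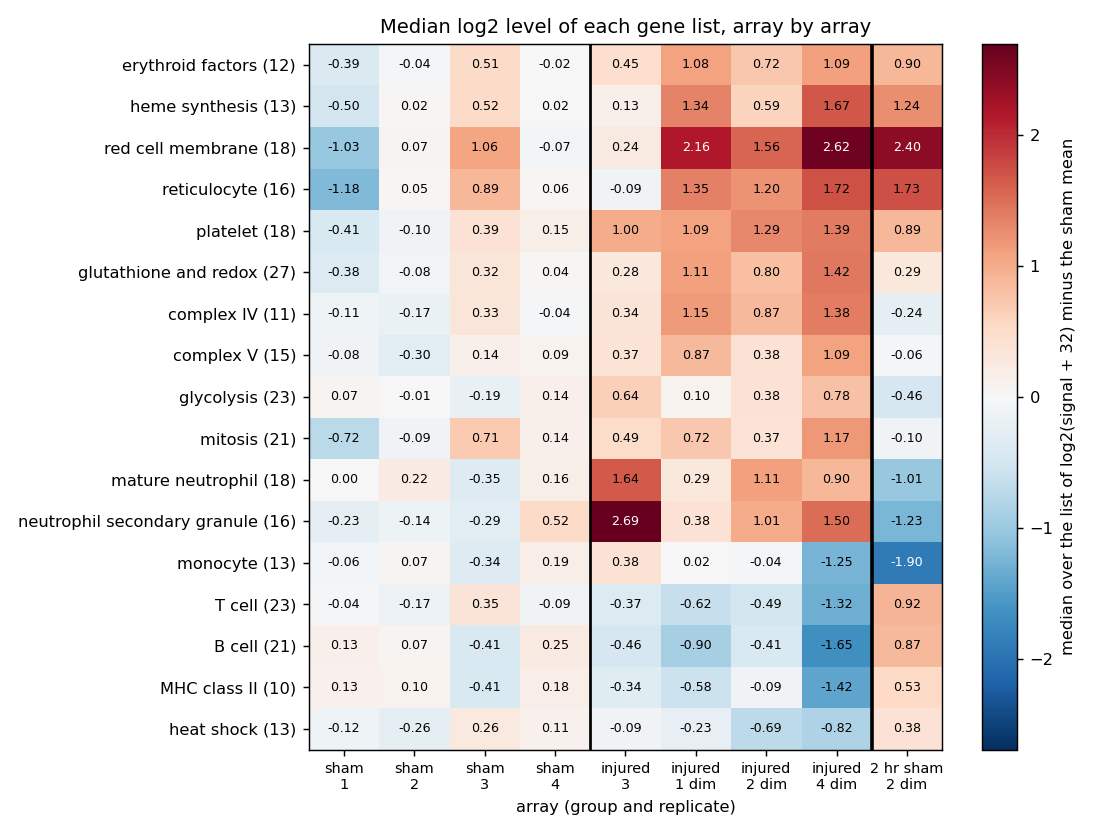
Median over each gene list (number of genes tested in brackets) of log2(signal + 32) minus the sham mean, for the 4 sham and 4 injured arrays at 3 days, and in the last column for the dim sham array at 2 hr minus the mean of the other 3 shams of its group. Red cell lists are mostly high on the 3 dim injured arrays and the dim sham and lie between -0.09 and 0.45 on bright injured replicate 3, where the neutrophil granule list is highest (2.69).

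Glutathione and peroxiredoxin enzymes remove peroxides. Of 27 glutathione and antioxidant genes 11 rose and 2 fell (4.57% and 7.77% of all genes). With the control level as a covariate 9 rose and 1 fell, beside 2.07% of all genes in each direction. The list was highest on the dim arrays, with medians over the sham mean of 1.11, 0.80, 0.28 and 1.42 on injured replicates 1 to 4. On sham replicates 1 to 4 they were -0.38, -0.08, 0.32 and 0.04. Gpx4, which reduces lipid peroxides, measured 4816, 3654, 3902 and 5483 against 963, 1509, 2109.7 and 1571, with no overlap (log2 change 1.55, limma adjusted p = 0.000135). Prdx3, a mitochondrial peroxiredoxin, stood at 7212, 4024, 3686 and 7051 against 2211, 1695, 2513 and 1503, and its log2 change was 1.42 without and 1.53 with the covariate. Nqo1, a quinone reductase induced by NRF2, was higher on the 3 dim injured arrays than in any sham (3656, 2096, 1145 and 5890.3 against 483, 487, 1507 and 455). On bright replicate 3 it lay below sham replicate 3.

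Genes of the mitochondrial respiratory chain, which makes ATP, rose in every complex listed in the fit with all 8 arrays. Rising genes numbered 9 of 32 for complex I, 3 of 14 for complexes II and III, 8 of 11 for complex IV and 9 of 15 for ATP synthase (complex V), while 2, 0, 0 and 0 fell. Of all genes 4.57% rose and 7.77% fell. The covariate left 7, 3, 7 and 7 rises and 0 falls, beside 2.07% of all genes in each direction. Without injured replicate 4 the rises were 4, 2, 6 and 3, beside 1.35% of all genes. Without the dim arrays, which left 1 injured array, the list medians were 0.22, 0.24, 0.34 and 0.37, beside -0.20 for all genes. Fitted alone, the 8 arrays gave 1, 0, 0 and 0 rises. In that fit 155 of all 14709 genes rose, so few that these counts say little. Median log2 changes were 0.11 for complex I, 0.34 for complexes II and III, 1.01 for complex IV and 0.78 for complex V. Cox4i1, a core regulatory subunit of complex IV, had narrow groups, 10782, 9442, 8465 and 13463 against 4940.0, 4619, 5609 and 5508. Its log2 change was 1.01 (SE 0.15, limma adjusted p = 1.14e-05) and 1.04 with the covariate. Cox6c, a small subunit of the same complex, stood at 30663, 19504, 11625 and 28838 against 6550.4, 6225, 13159.5 and 7139, with the bright injured array inside the shams.

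Within complex I, Ndufa3 measured 15282, 11339, 10420.4 and 12657 against 4732, 2509.6, 5828 and 5129.7 and Ndufv3 6449.9, 6172, 7388 and 10389 against 3561, 2737, 3364 and 4761. Neither overlapped between groups, and the changes were similar with the covariate (log2 change 1.46 and 1.21) as without (1.49 and 1.07). Uqcrb of complex III was 18521, 17589, 10865 and 25072 against 10028, 9969.8, 8778 and 7986. Of ATP synthase, Atp5j, a coupling factor subunit, read 8920.5, 5772, 4991 and 15563 against 2916, 2668, 4264 and 3468, and Atp5b, the catalytic beta subunit, 18205, 13376, 6445 and 29925 against 3478, 4646, 8278 and 4558. Atp5j did not overlap, while the bright injured array of Atp5b lay below sham replicate 3. The assembly factor Ndufaf4, which belongs to no list here, fell instead (185, 183, 783 and 15.5 against 839, 939, 886 and 1098, log2 change -2.23), with bright replicate 3 close under the shams.

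Of 14 genes of the tricarboxylic acid cycle, which feeds the chain, 0 rose and 3 fell, beside 4.57% and 7.77% of all genes. Their median log2 change was -0.30, beside -0.21 for all genes. None passed with the covariate (4.13% of all genes did) or without injured replicate 4 (2.11%), shares at which 0 of 14 says little. Idh3a, a subunit of isocitrate dehydrogenase, measured 475, 243, 529 and 297 against 888, 506, 691 and 1084 (log2 change -0.99, limma adjusted p = 0.0158), and Cs, citrate synthase, 3553, 5382, 5865 and 2381 against 6181, 6677, 4588 and 7498, with 1 of its 2 other probe sets moving the same way. In glycolysis 6 of 23 genes rose and 0 fell, beside 4.57% and 7.77% of all genes, and 6 passed with the covariate, beside 4.13%. Gapdh stood at 24773, 25125, 20576 and 29357 against 9752, 10788, 12764 and 14552 (log2 change 1.06, SE 0.18), so this frequent reference gene was not level between the groups. Aldoa, aldolase A, was 11859, 11439.9, 13835 and 11239 against 6179, 6251, 5301 and 7928, and Hk1, the hexokinase of red cells and many other cells, 1844, 1818, 2365 and 2621 against 750.0, 651, 1070.1 and 1151. All 3 had groups that did not overlap.

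Of 18 platelet and megakaryocyte genes 10 rose and 0 fell, beside 4.57% and 7.77% of all genes, with a median log2 change of 1.12. Platelets are cell fragments that stop bleeding and carry RNA from megakaryocytes. On bright injured replicate 3, 13 of the 18 lay above all 4 shams, beside 13.7% of all genes, and of the 18 red cell membrane genes 4 did. In the covariate fit 2 rose, beside 2.07% of all genes, and the median log2 change was 0.70. Without injured replicate 4, 2 rose as well, beside 1.35% of all genes, and after scaling to a common median 4, beside 3%. The summed signal was 249353 to 409428 in the injured and 124629 to 211704 in the sham arrays.

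Selp, P-selectin, which platelets and endothelium display to bind leukocytes, measured 5059, 4489, 5464 and 5971 against 942, 1269, 2099.6 and 1203. The injured arrays agreed closely and all lay above the shams (log2 change 1.96, SE 0.54, limma adjusted p = 0.013, and 2.29 with the covariate). F2rl2, a thrombin receptor co-factor of mouse platelets, was 5046, 5882, 7709 and 6750.1 against 1737, 1513, 2329 and 1664 and also passed with the covariate. Gp6, the platelet collagen receptor, stood at 3562, 4828, 5846 and 4470.4 against 699, 1098, 1989 and 1610.3 and Thbs1, thrombospondin 1 of the alpha granules, at 25544, 30144, 18406 and 24797 against 6527, 9913, 11561 and 7129. Itga2b, the platelet integrin chain, rose (8471, 9523, 9747 and 10759 against 3042, 3316, 4869 and 6252). The platelet chemokine gene Pf4 did not pass (41910.1, 42491, 23732 and 48590.2 against 14708, 16534, 26984 and 21919, limma adjusted p = 0.0947), with the bright injured array among the shams.

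**Figure D3:**
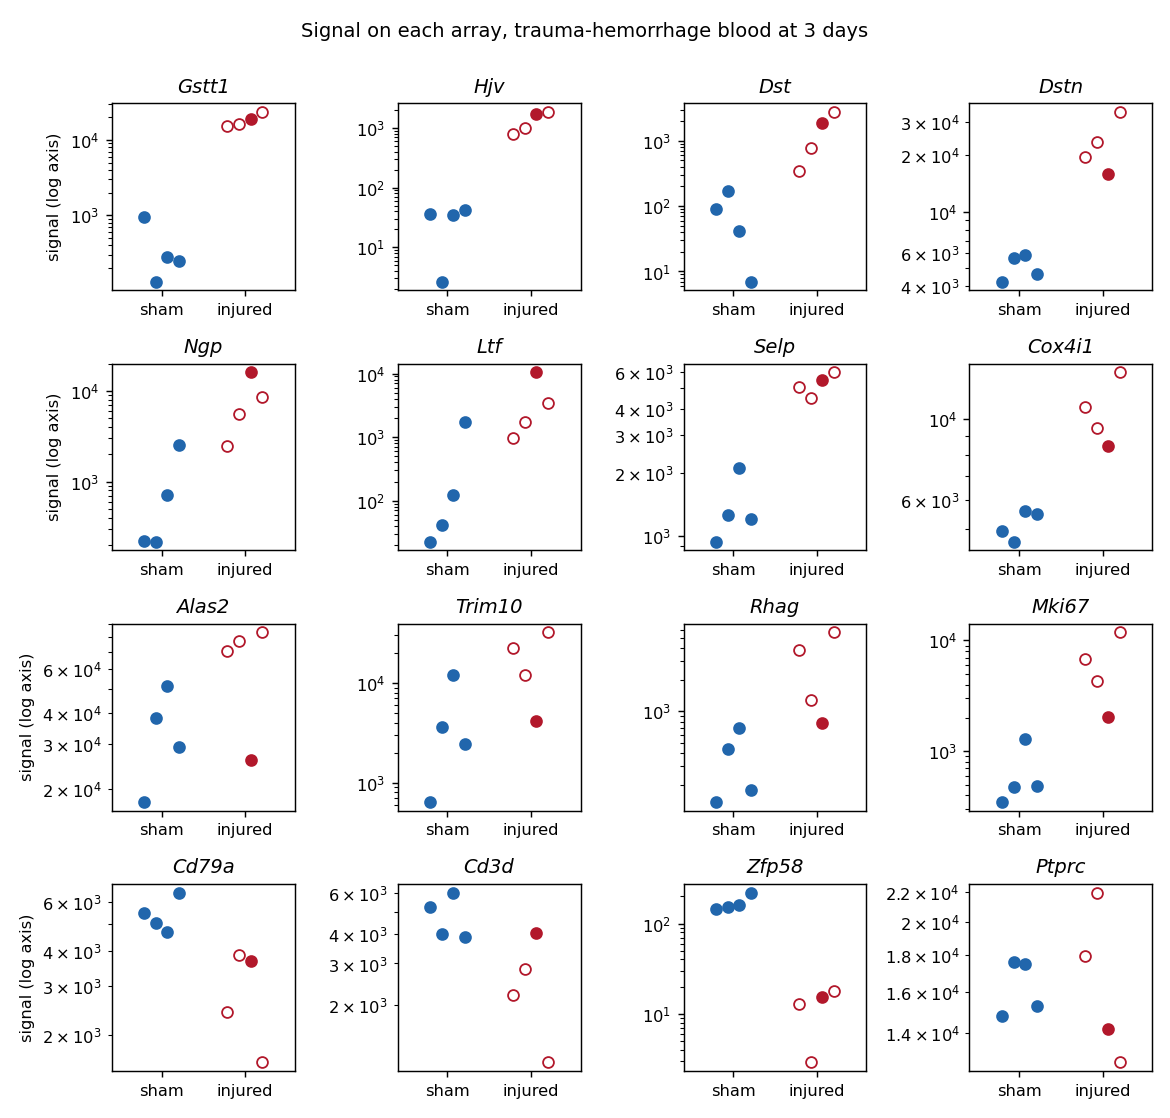
Signal of 16 genes (log axes) on each sham (blue) and injured (red) array at 3 days, with the dim injured arrays as open circles and replicates 1 to 4 from left to right in each group. Gstt1, Hjv, Dst, Dstn, Selp and Cox4i1 are higher on all 4 injured arrays, while for Alas2 and Trim10 the filled injured circle lies among the shams.

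Genes of maturing neutrophils rose, and their list medians were highest on the bright injured array. Of 16 secondary and tertiary granule genes, which neutrophils transcribe while still maturing in the marrow, 5 rose and 0 fell, beside 4.57% and 7.77% of all genes. With the covariate 4 passed, beside 4.13%. On bright injured replicate 3, 15 of the 16 lay above all shams, as did 18 of 18 mature neutrophil genes, beside 13.7% of all genes. Ltf, lactoferrin, measured 953, 1754, 10537 and 3504 against 22.4, 41, 121 and 1746 (log2 change 3.97, SE 0.83, limma adjusted p = 0.00128), and injured replicate 1 lay below sham replicate 4. Ngp, a neutrophil granule protein, stood at 2454, 5592, 16239 and 8620.1 against 219, 215, 711 and 2522 and Camp, the cathelicidin, at 774, 1074, 7745 and 2088 against 67.7, 145, 150.0 and 1784. Lcn2, lipocalin 2, which binds bacterial siderophores, was 3410.3, 7604, 14757 and 5947 against 1239, 1171, 713 and 3031. Sham replicate 4 overlapped the injured arrays for Ltf, Ngp and Camp but not for Lcn2, and for all 4 genes the other 3 shams lay below every injured array. Ltf, Ngp and Camp passed with replicate 3 alone (log2 changes 5.87, 4.80 and 4.82).

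Of 18 mature neutrophil genes 5 rose and 0 fell, beside 4.57% and 7.77% of all genes. With the control level as a covariate 2 passed, beside 4.13% of all genes. Without injured replicate 4 the number was 1, beside 2.11%, and it was also 1 with the 8 arrays fitted alone. S100a8 and S100a9, which form the calcium-binding pair calprotectin, measured 47557, 64516, 31883 and 60396 against 22039.7, 27029, 27385 and 25493 and 48783, 70907, 33176 and 68628 against 23361, 32256, 27170.1 and 31640.5. The groups did not overlap, but the bright array was the lowest injured one, and neither passed with the covariate (log2 change 0.52 and 0.45). Trem1, a receptor that amplifies inflammation, was highest on injured replicates 3 and 4 at 595, 904, 1745 and 2172 against 336, 361, 367 and 512, and passed with the covariate (log2 change 1.55 without and 1.78 with it). Mxd1, a MYC antagonist of maturing myeloid cells, was 12096, 9342, 9180.0 and 16939.7 against 4366, 4959, 5656 and 3680.4. Stfa2l1, a stefin like Stfa3, was 6252, 10446, 15429 and 10838 against 4244, 4556, 1869 and 3769.8 (log2 change 1.57). Of 5 primary granule genes, which mark the earliest neutrophil precursors, 0 passed, beside 12.3% of all genes. Elane, neutrophil elastase, was near background at 13.6, 12.8, 19.2 and 21.2 against 2.6, 44.2, 66.8 and 26.2.

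Lymphocyte genes lay lower, with modest changes. Of 21 B cell genes 5 fell and 0 rose, and of 23 T cell genes 4 fell and 0 rose, beside 7.77% of all genes falling. Without injured replicate 4, when 0.768% of all genes fell, none of either list passed, with medians of -0.60 and -0.45. With the control level as a covariate 0 B cell and 2 T cell genes fell, beside 2.07% of all genes. At such shares zeros in lists of this size say little. Median log2 changes were -0.83 and -0.65, and -0.83 and -0.82 with the covariate. Cd79a, a signalling chain of the B cell receptor, measured 2424, 3867, 3683 and 1593 against 5503, 5051, 4709.8 and 6503, and Ighm, the IgM heavy chain, 1979.9, 2652, 2687 and 1078 against 4679.6, 3788, 2983 and 5281. All injured arrays of both lay below all shams (log2 changes -0.98 and -1.04), but 5 of the 10 other probe sets of Ighm moved the same way and the mean over its probe sets turned the sign to 0.09. Ms4a1, which encodes CD20, did not pass (5191, 9379, 7438 and 3001 against 10153, 10239, 6938 and 10189, limma adjusted p = 0.248).

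In T cells, Cd3d, a chain of the T cell receptor complex, measured 2202, 2828, 4036 and 1135 against 5217, 4027, 6017 and 3896 (log2 change -1.02, limma adjusted p = 0.0255). Cd5, a receptor that dampens T cell signalling, was 168, 314, 159 and 133 against 405, 429, 472 and 338 and passed with the covariate (log2 change -1.47). Cd3e did not pass, with 13827, 16215, 11893 and 4747 against 14143, 14843, 17810.1 and 14780.2, where injured replicate 4 alone lay clearly below the shams. None of 20 NK and cytotoxic, 13 monocyte, 9 dendritic or 16 tissue macrophage genes passed, beside 12.3% of all genes. Their median log2 changes were -0.31, -0.19, -0.24 and -0.67, beside -0.21 for all genes, so the zeros do not show that these lists were level. For NK cells, Klrd1 (CD94) stood at 2065, 2197, 2365 and 775 against 2437, 2191, 3230.5 and 1539.5, and for monocytes Csf1r, the receptor of their growth factor, at 7936, 6404, 6303 and 2658 against 7610.2, 8534, 6204 and 9394. Adgre1, the macrophage marker F4/80, was 299, 333, 436 and 416 against 807, 1041, 848 and 1464 without overlap, yet did not pass (log2 change -1.39, limma adjusted p = 0.0681). Of 10 MHC class II genes 1 fell, near the 7.77% of all genes. This was H2-Ab1, with 2001, 2760.4, 3594 and 1343 against 4851, 4576, 2927 and 6322, and bright injured replicate 3 lay above sham replicate 3. On the dim 2 hr sham the B and T cell lists lay higher than on its 3 fellow shams, with medians of 0.87 and 0.92, and the monocyte list lay at -1.90. After scaling to a common median 0 genes of any of these lists passed, beside 3.43% of all genes, while the medians of the B and T cell lists were -0.74 and -0.56.

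**Figure D4:**
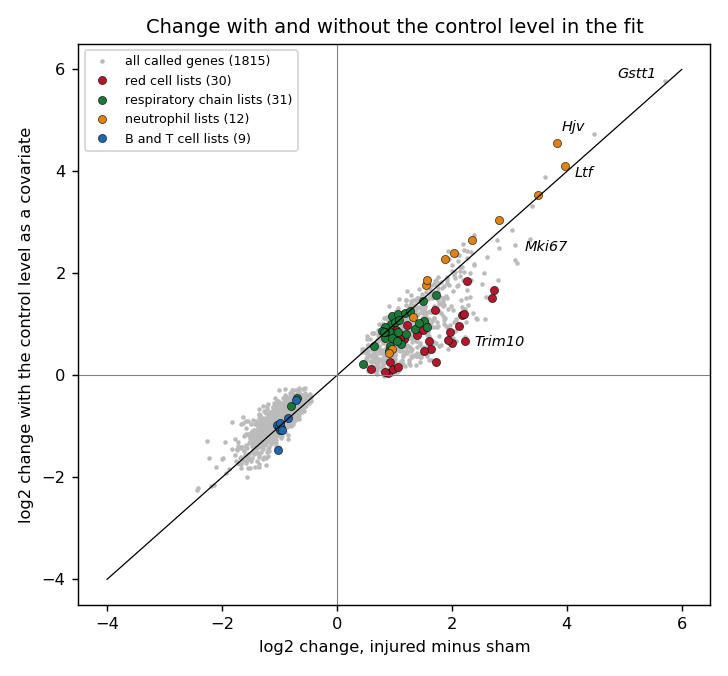
Log2 change of the 1815 called genes without (horizontal axis) and with (vertical axis) the control level as a covariate, with gene lists in colour and the diagonal as a line. Red cell genes fall below the diagonal, many close to 0 on the vertical axis, while neutrophil genes with changes over 1.5 and respiratory chain genes lie on or nearer to it.

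Of 31 interferon-stimulated genes 4 rose and 2 fell, beside 4.57% and 7.77% of all genes. Oas3, an antiviral RNA sensor, measured 19776, 8851, 4774 and 18196 against 1091, 2413, 6858 and 1897, highest on dim arrays 1 and 4, with the bright injured array among the shams. Ifitm3, a membrane restriction factor, was even at 23867, 22674, 18737 and 24949.9 against 11468, 12582, 12659.7 and 11330.1 (log2 change 0.90), and Ifit2 fell (463, 444, 326 and 483 against 839.9, 589.6, 1119 and 913, log2 change -0.94). The chemokine gene Cxcl10, an interferon target, did not pass, at 137, 107, 121 and 73.6 in the injured and 104, 149, 34.6 and 155 in the sham arrays (limma adjusted p = 0.947). Of 24 NF-kB feedback and cytokine genes 0 rose and 2 fell, near the shares of all genes. The 2 were Ccl3, a chemokine of macrophages (131, 109, 312 and 82.9 against 356, 421, 261 and 812), and Ptgs2, the inducible cyclooxygenase (446, 17.3, 139 and 42.8 against 198, 813, 659 and 516), whose 1 other probe set did not move the same way. Neither passed with the covariate.

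None of 17 glucocorticoid-responsive genes passed, beside 12.3% of all genes, and their median log2 change was 0.14. Fkbp5, which tempers the glucocorticoid receptor, was 373, 753, 458 and 243 against 429, 303, 505 and 354 and Ddit4, a restraint on mTOR, 9998, 12452, 10805 and 8183 against 4013, 6896, 5500.5 and 9327 (limma adjusted p = 0.885 and 0.0966). Of 13 heat shock genes 3 fell, beside 7.77% of all genes, and 0 rose. Dnaja1, an HSP70 co-chaperone, measured 2156, 1954, 2365 and 1063 against 3286, 2431, 4061 and 4038 (log2 change -0.89, limma adjusted p = 0.00677) and passed with the covariate, and Hspd1, the mitochondrial chaperonin, 666, 799, 1084 and 639 against 1554, 1061, 1542 and 1598. Dnaja1 did not overlap, and Hspd1 overlapped through injured replicate 3 and sham replicate 2.

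Of 21 mitosis genes 6 rose and 0 fell, beside 4.57% and 7.77% of all genes, and 3 passed with the covariate, beside 4.13%. Of 19 DNA replication genes 1 rose and 1 fell, near the shares of all genes. Mki67, which encodes the proliferation marker Ki-67, measured 6744, 4282, 2027 and 11820.0 against 347, 472, 1302 and 481. All injured arrays lay above all shams, by a log2 change of 3.10 (SE 0.39, limma adjusted p = 3.85e-07) and of 2.55 (limma adjusted p = 3.61e-05) with the covariate. Among cyclins of the mitotic phase, Ccna2 stood at 9774, 6203, 2357 and 13002 against 515, 1919.7, 3614 and 2092 and Ccnb2 at 1597, 776, 408 and 2520.0 against 95.9, 116, 351 and 348. Pcna, the replication clamp, fell (1149.7, 1804, 2071 and 717 against 2726, 1850.3, 2413 and 2993, log2 change -0.87). The bright injured array of Ccna2 lay among the shams.

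The largest falls were of genes with low signals, so their size rests in part on the pseudocount. Bmp2, a ligand of the pathway in which Hjv acts, went from 203, 179, 529 and 237 in the shams to 15.4, 72.3, 4.62 and 15.5 in the injured arrays (log2 change -2.44, limma adjusted p = 0.025). Of the 12 genes of that pathway 1 rose (Hjv) and 1 fell (Bmp2), counts near the 4.57% and 7.77% of all genes. Lpl, lipoprotein lipase, measured 153, 41.9, 236 and 267 against 657, 786, 982 and 983. Zfp58, a zinc finger gene, was 13, 2.89, 15.5 and 18 against 145, 153, 162 and 220.1, with tight groups on both hybridization days (log2 change -2.19 and -2.18). It passed with replicate 3 alone (log2 change -2.07, limma adjusted p = 0.0401). The transcript G530011O06Rik stood at 10.4, 1.53, 16.6 and 4.15 against 385, 107, 113 and 208 and Tchp, a keratin-binding centrosome protein gene, at 122, 6.28, 98.1 and 21.4 against 265, 291, 238 and 374. Bmp2 and Lpl did not pass with the covariate, and the other 3 did.

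The trauma-hemorrhage effect at 3 days was set against that at 1 day and 7 days and against burn at 3 days, each as the difference of 2 injured minus sham changes. Each of these effects has its own shams, while the 3 differences share the 8 arrays of day 3. At 1 day 2526 genes passed (17.2%), at 7 days 1212 (8.24%, of which 903 higher, 6.14%), with all 4 injured arrays dim, and after burn at 3 days 158 (1.07%, of which 156 higher). The effects differed for 10 genes between 3 days and 1 day (0.068%), for 155 between 3 days and 7 days (1.05%) and for 55 between trauma-hemorrhage and burn (0.374%). Under the same covariate the counts were 21, 143 and 3, of which 10, 97 and 3 genes also differed without it. Without the dim arrays 2 genes differed from 1 day, and 0 differed between the injuries by limma (507 at an unadjusted p under 0.05). The 7 day difference could not be fitted without dim arrays, since no injured array was left at 7 days. Single arrays moved these counts: that against 1 day was 36 without injured replicate 3, 1 without injured replicate 4 and 0 without 1 day sham replicate 2. The count against 7 days was 297 without 7 day injured replicate 4 and 22 without 7 day sham replicate 2, and that against burn was 797 without injured replicate 3, 365 without sham replicate 3 and 0 without injured replicate 4.

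Gstt1 was at background 2 hr after trauma-hemorrhage (85, 137, 152 and 155). It rose at 1 day, though less on replicate 2 (3659, 426, 6526 and 4430.1), stood higher at 3 days and was back at low signals by 7 days (28.2, 199.7, 678 and 125), while its shams at these 3 other times lay between 35.8 and 242.9. After burn at 3 days it was 93.1, 230.3, 192 and 226. The effect at 3 days exceeded that at 7 days by 5.16 on the log2 scale (limma adjusted p = 0.0068) and that of burn by 4.56 (limma adjusted p = 0.0213), and its difference from 1 day did not pass (1.35, limma adjusted p = 0.731). Hjv ran alongside, with 877, 131, 1408 and 1630.2 at 1 day and 22.9, 4.5, 184 and 193 at 7 days, and with 4.14, 60.1, 77.2 and 41.8 after burn. Its effect exceeded that of burn by 4.07 and that at 7 days by 3.64 (limma adjusted p = 0.0137 and 0.0104). Once the control level was a covariate, the difference from burn was 4.63 for Gstt1, which no longer passed (limma adjusted p = 0.160), and 4.41 for Hjv (limma adjusted p = 0.0219).

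Dst and A930009A15Rik also differed from burn (by 4.44 and 3.50 on the log2 scale), and burn arrays of A930009A15Rik stayed at 15.5, 7.21, 23.7 and 30.2. Ankrd36 differed both from 7 days and from burn (by 3.93 and 3.53). Mki67 was higher after trauma-hemorrhage at 3 days than after burn, where it measured 698, 396, 454 and 343 (difference 3.07, limma adjusted p = 0.0128). Its effects at 1 day and 7 days were 0.98 and 2.01, and neither differed from 3 days past the threshold. Of these genes Dst passed against burn with the control level as a covariate (4.82, limma adjusted p = 0.0382). Mki67 (2.33), A930009A15Rik (3.39) and Ankrd36 (2.59) did not (limma adjusted p = 0.144, 0.137 and 0.183). Nars, an asparaginyl-tRNA synthetase gene, measured 11508, 6795, 4295 and 20771 against 2240.2, 2662, 4177 and 2556 at 3 days and 2785, 2807, 3641 and 2579.8 after burn (difference 1.74). That difference was 1.30 with the covariate (limma adjusted p = 0.181) and 0.65 without the dim arrays, and passed in neither.

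Rfesd, which encodes a Rieske iron-sulfur domain protein, rose at 3 days alone among these comparisons (2308, 1314, 849 and 3025 against 387, 496, 517 and 204, log2 change 2.05, SE 0.33). Its effect differed from 1 day, 7 days and burn by 2.50, 2.67 and 2.25 (limma adjusted p = 0.0224, 0.00372 and 0.0164). In the covariate fit the differences from 1 day and 7 days passed and that from burn did not (2.06, limma adjusted p = 0.177). Cd274, which encodes the inhibitory ligand PD-L1, and the interferon gene Ifit2 turned direction between the days. Cd274 rose at 1 day (log2 change 1.26) and fell at 3 days (-0.86), a difference of -2.12 (limma adjusted p = 0.0232). Ifit2 went from 0.98 to -0.94, a difference of -1.92 (limma adjusted p = 0.0359). Birc2, a ubiquitin ligase that restrains cell death, fell at 3 days (768, 683, 1208 and 1159.7 against 2724, 1793, 3129 and 2679) and differed from 1 day and from burn (by -2.04 and -1.59). With the covariate its difference from burn did not pass (limma adjusted p = 0.219). Without the dim arrays none of the 1 day differences passed, at 1.54 for Rfesd, -1.44 for Cd274, -2.27 for Ifit2 and -1.67 for Birc2 (limma adjusted p = 0.279, 0.249, 0.143 and 0.225).

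Several respiratory chain genes differed from 7 days. Cox4i1, Ndufv3 and Atp5j exceeded the 7 day effect by 1.10, 1.23 and 1.49. Of the 15 ATP synthase genes 4 rose more than at 7 days, beside 0.605% of all genes, and 0 differed from 1 day, beside 0.068%. Cox4i1 stood at 3647, 4611, 4729.7 and 6167 on the dim injured arrays of 7 days and 4693, 5268, 5631 and 4621 on their shams. Alas2 measured 79132, 69669, 145215 and 87302 on those same dim arrays and 22077, 27766, 30758 and 38838 on their shams. The parts of time and of brightness in these values were not tested. No difference between times or injuries passed for any gene of the B cell, T cell, NK or monocyte lists. Of all genes only 0.068% (1 day), 1.05% (7 days) and 0.374% (burn) passed, so zeros in lists of this size do not show that the effects were alike. For neutrophils, 13 of 18 mature and 11 of 16 secondary granule genes rose after burn at 3 days, beside 1.06% of all genes, against 5 and 5 after trauma-hemorrhage. The difference between the injuries passed for 1 of the 18 and 0 of the 16, beside 0.374% of all genes.

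**Figure D5:**
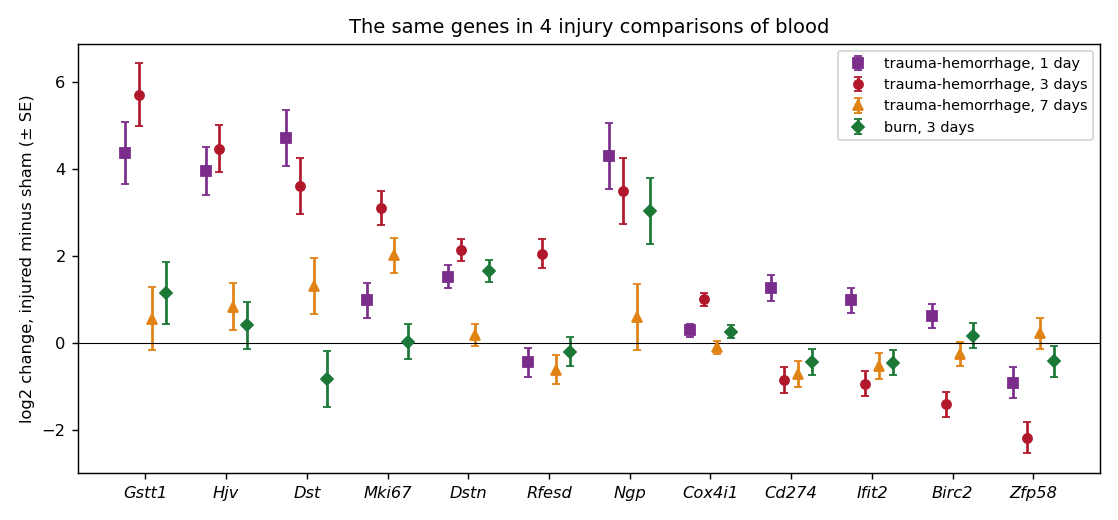
Log2 change (injured minus sham, ± SE from the fit on 64 blood arrays, 4 injured and 4 sham arrays a comparison) of 12 genes after trauma-hemorrhage at 1, 3 and 7 days and after burn at 3 days. Gstt1 and Hjv are high after trauma-hemorrhage at 1 and 3 days and low in the other comparisons shown, Ngp is high in 3 of the 4, and the 3 day points of Rfesd, Birc2 and Zfp58 lie apart from the other 3.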

How the data were processed

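Leukocyte RNA of mouse blood was amplified with the NuGEN Ovation Biotin system and measured on Affymetrix mouse arrays (Mouse Genome 430 2.0), per the labels' protocols. The deposited values are linear signal intensity from the MAS5 algorithm of GCOS 1.4, which the submitters' processing notes name, and the values show that the authors' scaling left the 2% trimmed mean at the same level on every array. Such values cannot show a change shared by most genes. Of 45101 probe sets, 34958 have 1 gene in the platform annotation, 932 several and 9147 none. Each of 18194 genes was read from 1 probe set, that with the highest mean over blood arrays and where possible none marked as cross-hybridizing. A gene was tested where it exceeded its array's median signal on 4 or more of 64 blood arrays (14709 genes).

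The fit was limma 3.58.1 in R 4.3.3 on log2(intensity + 32) of the 64 blood arrays of burn and trauma-hemorrhage in 16 groups, with Benjamini-Hochberg adjustment over all genes and a threshold of 0.05. Exact permutation tests used SciPy 1.17.1. An array is called dim where its BioB and BioC level is over 2 times the blood median. The number of arrays, 4 a group, limits the precision. The rule for named genes took the 8 largest rises and 8 largest falls with arrays apart, the 4 smallest p of each list and of each difference between comparisons, the 6 smallest p among genes called with and without the control level, the 4 genes that lost most log2 change to it, and a fixed set of markers. It gave 205 genes, of which 96 are described. The comparison, its gene lists and tests were chosen with earlier results of these data known. Alternatives were 2 other pseudocounts, no filter, quantile normalization, all probe sets, the arrays compared alone, blocks for replicate number or for hybridization day, the control level or Gapdh ratio as a covariate, no dim arrays, array weights and each array left out. Scaling to a common median and fits within each hybridization day were added after seeing the data. Scripts were tested on simulated data.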

Additional observations from a re-analysis of the deposited data

Results flagged for a closer look

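Single arrays stood far from the other 3 of their group (by Dixon's test for 4 arrays) for 9 of the genes described, where chance flags about 1 in 20 of the 196 groups checked. On bright injured replicate 3, Alas2 (26095), Fech (20482) and Fth1 (24923) lay far below the 3 dim injured arrays. Injured replicate 4 was far above the others for Rsu1 (30419) and far below for Klrd1 (775). Among the shams, replicate 3 stood out for Nqo1 (1507) and Ms4a1 (6938) and replicate 2 for Hspd1 (1061) and Hjv (2.65). The causes were not tested.

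The injury effect differed between comparisons for 10 genes (3 days against 1 day), 155 genes (3 days against 7 days) and 55 genes (trauma-hemorrhage against burn at 3 days). Relative to 1 day the log2 difference was -1.92 for Ifit2, -2.04 for Birc2, -2.12 for Cd274 and 2.50 for Rfesd. Relative to 7 days, when all 4 injured arrays were dim, it was 5.16 for Gstt1, 3.64 for Hjv, 3.93 for Ankrd36, 1.96 for Dstn, 1.88 for Rsu1 and 1.37 for Tuba4a. The same difference was 1.49 for Prdx3, 1.23 for Ndufv3, 1.10 for Cox4i1, 1.49 for Atp5j, 1.03 for Gapdh, 2.67 for Rfesd and -2.41 for Zfp58. Relative to burn it was 4.56 for Gstt1, 4.07 for Hjv, 4.44 for Dst, 3.50 for A930009A15Rik, 3.53 for Ankrd36, 3.07 for Mki67 and 2.99 for Blvrb. It was 1.37 for Cox6c, 1.81 for Atp5b, 2.25 for Rfesd, 1.74 for Nars, -1.34 for Dnaja1 and -1.59 for Birc2 in that comparison.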

How the results depend on the processing

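The count of 1815 genes was 505 after scaling to a common median, 608 with the control level as a covariate, 35 without dim arrays, 1005 with array weights, 181 with the 8 arrays fitted alone, 463 and 233 within each hybridization day, and 311 to 2741 with 1 array left out. Same-numbered arrays of the groups did not deviate together (r of -0.17, -0.01, -0.47 and -0.17), so numbers were not taken as pairs. With a replicate block the count was 1464. The replicate block took the differences from 10 to 0 (1 day; 1249 at an unadjusted p under 0.05 in limma), from 155 to 55 (7 days) and from 55 to 20 (burn). Of the 10 genes differing from 1 day the count was 26 with a pseudocount of 100, 4 with quantile normalization, 16 with all probe sets, 3 after scaling to a common median, 21 with the control level as a covariate, 2 without dim arrays, 1 with array weights, 0 fitted alone and 0 to 36 with 1 array left out. Against 7 days 155 became 86 with a pseudocount of 1, 478 after scaling to a common median, 32 with array weights, 1 fitted alone and 22 to 297 with 1 array left out, and the fit without dim arrays was not run because no injured array remained. Against burn 55 became 36 and 83 with pseudocounts of 1 and 100, 31 with quantile normalization, 19 after scaling to a common median, 3 with the control level, 601 with the Gapdh ratio as a covariate, 0 without dim arrays, 388 with array weights, 15 fitted alone and 0 to 797 with 1 array left out. The control level difference of 0.75 ranged from 0.58 to 1.11, and the Gapdh ratio difference of -0.48 from -0.58 to -0.36, with 1 array left out, when p cannot fall under 0.0571. The beta-actin ratio gave -0.21 (exact two-sided permutation test, p = 0.429).

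Of 96 genes described, 59 kept direction and side of the threshold with the control level as a covariate, 72 with quantile normalization and 72 after scaling to a common median, and none reversed with the covariate or the common median. Without dim arrays 6 reversed, with log2 changes of -0.12 for Foxo3, -0.28 for Alas2, -0.14 for Cpox, -0.22 for Fech, -0.22 for Fth1 and -0.070 for Tspan33. Over all probe sets Ighm reversed to 0.089, and with quantile normalization Ptprc to -0.41. The causes were not tested. Of the 1143 genes that fell, 116 had an injured mean signal under 100, where low signal limits the measured size of a fall.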

Other observations

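Of 44 cytosolic ribosomal protein genes 2 rose and 0 fell, beside 4.57% and 7.77% of all genes, with a median log2 change of 0.10, but 0 rose and 15 fell with quantile normalization. Of 34 proteasome genes 3 rose and 4 fell, with a median of -0.21, the same as that of all genes. Of 18 genes of fatty acid use and lipases 1 rose and 1 fell, near the shares of all genes. The ribosomal protein list was higher at 7 days, where 15 of 44 rose, beside 6.14% of all genes at that time, and 1 fell. The injured arrays of 7 days were all dim.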
